A study of Rattus norvegicus with 11 samples.

Results

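Soleus muscle of 11 male Sprague Dawley rats was compared between animals with much and with little weighed fat. Total fat from 3 weighed depots (perirenal, mesenteric and abdominal) was divided by body weight, and 6 animals at 7% or more formed the high-adiposity group while 5 under 7% formed the low-adiposity group, which together are all 11 animals of the study. The study itself was built on maternal diet: mothers received a control diet or one rich in saturated fat and sucrose from 3 weeks before mating until the end of lactation. The offspring never ate the maternal diet after weaning on day 21, since all were then kept on chow with free access until 12 months of age. Adiposity was therefore not assigned but arose among animals that shared one diet after weaning, and each animal came from a different litter.

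High-adiposity animals 1 and 2 (named H10 and A75 in the labels) had control mothers, and high-adiposity animals 3 to 6 (C91, H1, C25 and H20) had high-fat mothers. Low-adiposity animals 1 to 4 (C73, A110, C60 and A89) had control mothers, and low-adiposity animal 5 (A37) was the 1 lean offspring of a high-fat mother. Adiposity and maternal diet were thus partly confounded, with 2 of 6 control offspring but 4 of 5 high-fat offspring in the high group. The comparison was made with maternal diet in the model, which sets high against low animals within each diet, and again without it.

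Soleus is a postural muscle made mostly of slow oxidative fibres, which burn fatty acids and glucose in mitochondria. There, complexes I to IV of the inner membrane pass electrons from NADH and succinate to oxygen. Complexes I, III and IV pump protons, and complex V (ATP synthase) uses the proton gradient to make ATP. Nuclear genes encode most subunits of these complexes and all proteins of the mitochondrial ribosome, which translates the few subunits encoded in mitochondrial DNA. Muscle also takes up fatty acids released from fat depots, stores part of them in lipid droplets, and responds to insulin and to leptin and adiponectin, hormones made by adipocytes.

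Fat made up 9.70% ± 3.45 of body weight in the high group (SD, n = 6) and 4.99% ± 0.989 in the low group (SD, n = 5). The animals nearest to the limit were high-adiposity animals 4 and 1 at 7.12% and 7.17% and low-adiposity animal 1 at 6.28%. High-adiposity animal 3 stood apart at 16.3%, with 99.1 g of fat on a body weight of only 609 g, the lightest of the 11 animals. Perirenal fat differed most between the groups, with 50.6 g ± 18.7 against 17.1 g ± 6.96, and made up 64.2% against 46.9% of total fat. Mesenteric fat weighed 11.1 g ± 1.01 against 7.37 g ± 2.15, and abdominal fat 14.9 g ± 1.65 against 11.0 g ± 3.17. Low-adiposity animal 5 had an unusual distribution, with 53.3% of its fat in the abdominal depot against 13.8% to 29.0% in the other 10 animals. Body weight was 811 g ± 118 in the high group and 705 g ± 73 in the low group, so the high group was also heavier on average although its fattest animal was the lightest. These weights describe how the groups were formed and were not tested.

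**Figure D1:**
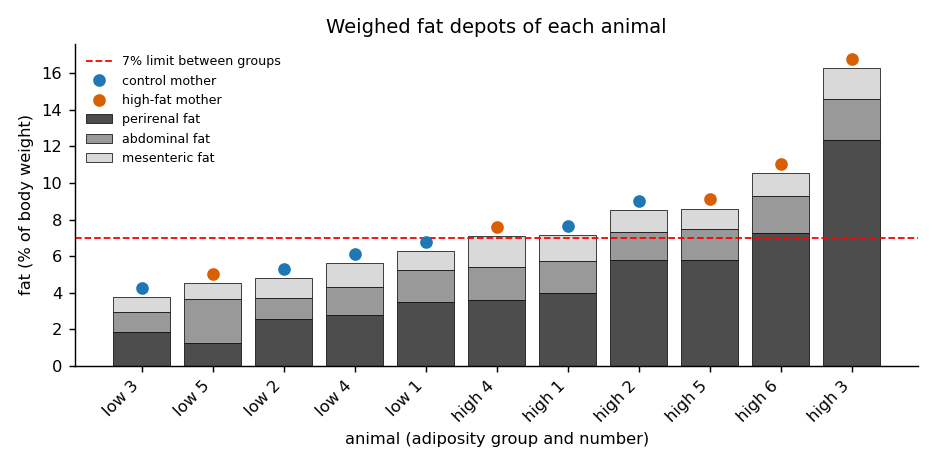
Stacked bars give perirenal, abdominal and mesenteric fat of each animal as a percentage of its body weight, ordered by total fat, and the dot above each bar gives the maternal diet. The dashed line at 7% separates the 5 low from the 6 high animals, and high-adiposity animal 3 stands apart at 16.3%.

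Messenger RNA was counted per gene in each animal. Count totals ran from 10.2 to 15.4 M (mega) per library, and 10814 genes had enough counts to be tested. The slow myosin heavy chain Myh7, which defines slow fibres, lay between 17370 and 25150 counts per M counts (CPM, scaled between libraries) in all 11 animals. The 10 most abundant genes took 19.7% to 25.8% of the counts of a library. Scaling factors (TMM) ran from 0.897 to 1.05 in the high group and from 1.01 to 1.12 in the low group.

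With maternal diet in the model, 183 genes rose (1.69% of those tested) and 37 fell (0.342%) in high against low adiposity, by edgeR's quasi-likelihood test at a Benjamini-Hochberg adjusted p under 0.05. The genes that rose did so by modest and similar amounts, 0.33 to 1.18 on the log2 scale with a median of 0.53. Those that fell changed more, with a median of -0.96 and a range of -3.93 to -0.37. Of the 183 genes that rose, 45 encode subunits of complexes I to V and 16 encode proteins of the mitochondrial ribosome. Only Acsl3 of the 37 genes that fell belongs to any of the gene lists used here. Over all tested genes, called or not, 4838 were higher and 5976 lower, the background for the list counts below. Without maternal diet in the model no gene passed (smallest edgeR adjusted p 0.274), although 1313 had an unadjusted p under 0.05. Other tests without diet gave 99 calls (DESeq2), 57 (likelihood ratio) and 0 (limma voom). The other terms of the model also gave no call: 0 genes for maternal diet beside adiposity (1551 at an unadjusted p under 0.05; 289 by DESeq2 and 37 by the likelihood ratio test) and 0 genes for a difference of the adiposity effect between diets (265 at an unadjusted p under 0.05, and 0 by both other tests).

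The calls depended on which animals were included. Leaving out each animal in turn gave 0 to 227 calls, with 0 after removal of high-adiposity animal 1 or 2 or low-adiposity animal 1 or 5. These are both fat and 1 of the 4 lean control offspring, and the only lean offspring of a high-fat mother. Within the 6 control offspring alone and within the 5 high-fat offspring alone no gene passed either (smallest edgeR adjusted p 0.159 and 0.763). With library size alone as scaling, 51 genes rose and 418 fell, a share of 10.9% higher against 83.2% with TMM. That scaling moved the median log2 fold change over all genes from -0.04 to -0.23, so the values given here are relative to the bulk of expressed genes.

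**Figure D2:**
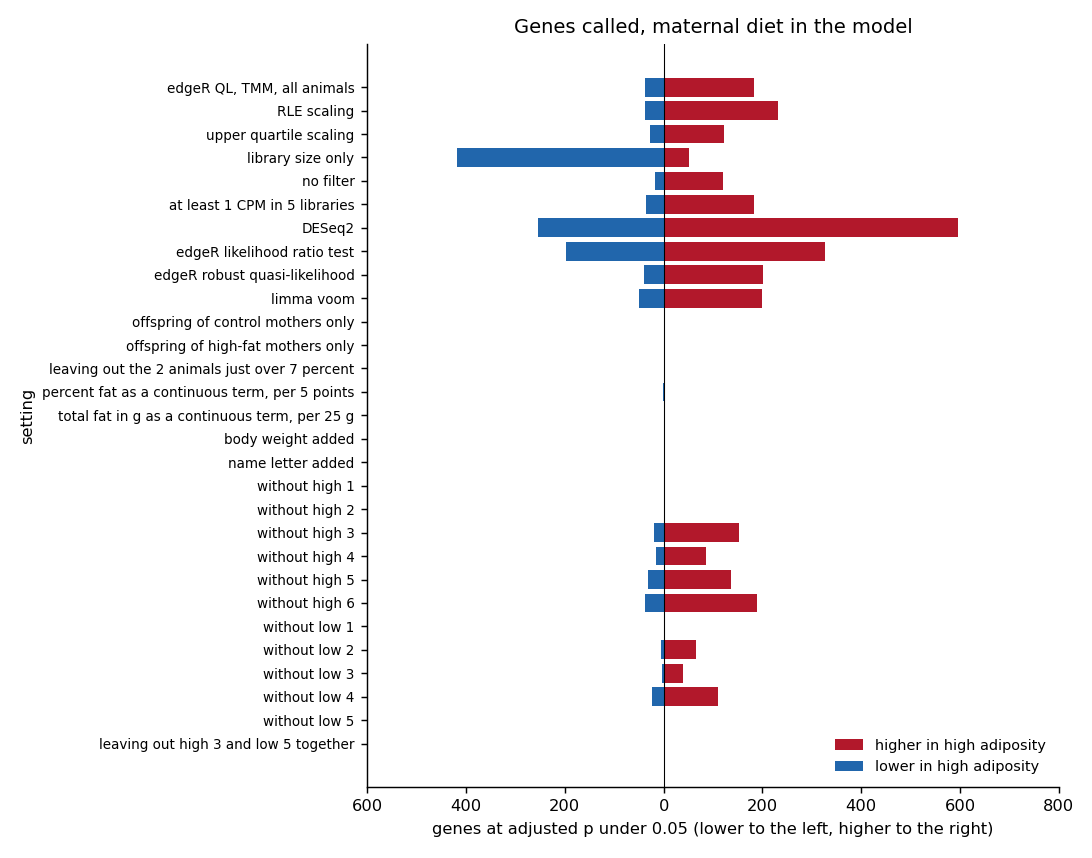
Bars give the number of genes at an adjusted p under 0.05 for high against low adiposity with maternal diet in the model, higher to the right and lower to the left, for each way of running the test. The first bar is the 183 and 37 genes described in the text, and settings with no bar gave 0 calls.

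The subunits of the respiratory chain and ATP synthase were the gene group with the most calls. Of 73 tested subunits of complexes I to V, 72 were higher in the high-adiposity group and 45 of these passed, 61.6% against 1.69% of all genes. Their median log2 fold change was 0.53, a 1.45-fold difference, against -0.04 over all genes tested. Within both maternal diets, every high animal lay above every low animal for 62 of the 73 subunits, against 7.07% of all genes. The high-fat side of this, like every value for high-fat offspring alone, rests on low-adiposity animal 5 as the only low animal. Across all 11 animals without regard to diet, 13 of the 73 showed this separation, against 0.962% of all genes. The median without diet in the model was 0.35. The maternal diet term of the same model had a median of -0.36 for these genes, opposite in sign to the adiposity term, though none of its genes passed. The median was 0.53 in control offspring alone, 0.56 in high-fat offspring alone, and 0.49 to 0.55 when each animal was left out in turn. With library size scaling it was 0.34, while that of all genes was -0.23.

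Complex I, which takes electrons from NADH, had 33 of 34 subunits higher and 24 called, with log2 fold changes from -0.03 to 0.76. Genes were assigned by name, so these counts include the called Ndufa4 (0.54 ± 0.12, SE), whose protein is part of complex IV. The single lower value belonged to Ndufs1, the largest subunit of complex I, at -0.03 ± 0.13 (SE; edgeR adjusted p = 0.91). Complex IV, which hands the electrons to oxygen, had all 11 subunits higher and 7 called, with the highest median of the complexes at 0.64. Complex V had 15 of 15 higher and 9 called, with a median of 0.56. Complex III had 9 of 9 higher and 4 called (Uqcr11, Cyc1, Uqcrh and Uqcrc1), with a median of 0.48, cytochrome c (Cycs) being counted with it. Complex II, which is also the succinate dehydrogenase of the TCA cycle, had 4 of 4 higher and 1 called, Sdhb at 0.62 ± 0.11 (SE), while its catalytic subunit Sdha was at 0.09 ± 0.14 (edgeR adjusted p = 0.74). The large core subunits Ndufs1, Sdha and Uqcrc2 thus had the smallest values of their complexes.

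Cox4i1, a regulatory subunit of cytochrome c oxidase (complex IV), had the smallest p of the genes given by a gene symbol, behind 1 row given by a locus number. It was at 2119, 1890, 1568, 1651, 1442 and 1395 CPM in high-adiposity animals 1 to 6 and at 1138, 1272, 1137, 1251 and 902 CPM in low-adiposity animals 1 to 5. Every high animal was above every low animal, the 2 fat control offspring were highest and the lean high-fat offspring was lowest. Its log2 fold change was 0.74 ± 0.09 (SE), with an edgeR adjusted p of 0.0216. Within control offspring it was 0.74 and within high-fat offspring 0.78.

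Cox5b, another complex IV subunit, had 1321, 1110, 818, 965, 874 and 794 CPM in the high animals and 733, 792, 675, 754 and 548 CPM in the low animals. The groups only just failed to overlap, since high-adiposity animal 6 and low-adiposity animal 2 differed by less than 2 CPM. Its log2 fold change was 0.69 ± 0.10 (SE; edgeR adjusted p = 0.0216). Cox7a2, the form of subunit VIIa found in most tissues, rose by 0.64 ± 0.10 (SE), and the muscle forms Cox6a2 and Cox8b rose by 0.66 ± 0.11 and 0.77 ± 0.14.

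Among complex I genes, Ndufb9 of the membrane arm was at 1534, 1318, 1143, 1089, 965 and 846 CPM in the high animals and at 807, 928, 739, 870 and 609 CPM in the low animals. High-adiposity animal 6 lay below low-adiposity animals 2 and 4, so the groups overlapped across diets but not within them. Its log2 fold change was 0.76 ± 0.12 (SE; edgeR adjusted p = 0.0216). Ndufa8, Ndufa1 and Ndufb7, accessory subunits, rose by 0.57, 0.66 and 0.61, and the iron-sulphur subunits Ndufs7 and Ndufs8 by 0.68 and 0.65, each with the same adjusted p of 0.0216. Higd1a, an inner membrane protein that binds complex IV, rose by 0.60 ± 0.09 (SE).

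**Figure D3:**
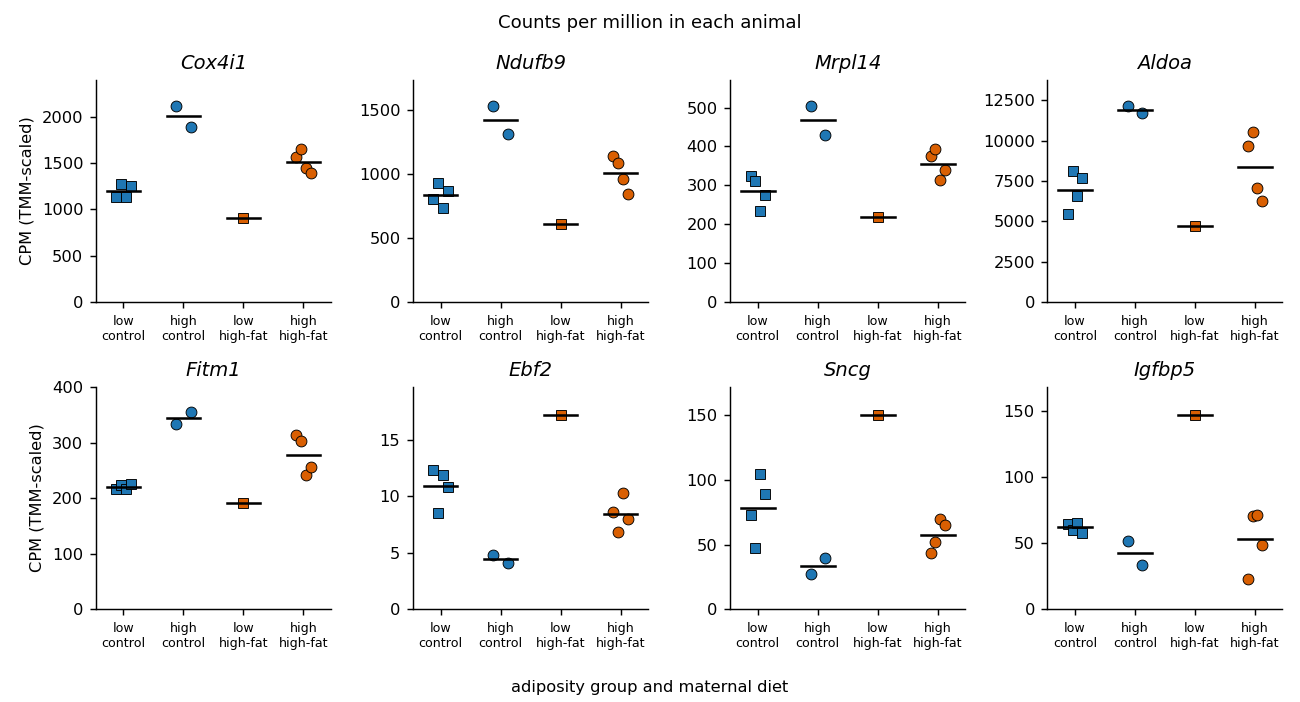
Each point is the CPM of 1 animal, with squares for low and circles for high adiposity, blue for control and orange for high-fat mothers, and a line at the mean of each of the 4 combinations. Within each maternal diet the high animals lie above the low animals for Cox4i1, Ndufb9, Aldoa, Fitm1 and Mrpl14 and below them for Ebf2, Sncg and Igfbp5, where the low high-fat group is a single animal.

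Since these subunits were higher together, upstream sequence is shown for 4 of the called ones that hold a motif of a factor known for respiratory chain genes. All 250 bases before the transcription start were searched on both strands in RefSeq promoter sequences of build GRCr8, which held 31 of the 45 called subunits. The letters GCGCATGC, part of the NRF1 motif, were in 4 of the 31 (12.9%), in 4.64% of the 8043 tested genes with a sequence and in 2.38% of all 27457 promoters. The letters CGGAAG, the core of the motif of ETS factors such as GABPA, were in 14 of the 31 (45.2%), in 27.3% of tested genes and in 14.7% of all promoters. The letters AAGATGGCG, known for YY1, were in 0 of the 31 and in 1.34% of tested genes. The 5 of 50 tested subunits with the NRF1 letters and the 22 of 50 with the ETS letters give shares close to those of the called ones. Matches are given in capitals in the sequences, which run 5′ to 3′ along the gene's strand; those of Ndufa11 (chr9:1637469-1637588, plus strand) and Sdhb (chr5:158547711-158547830, plus strand) show the NRF1 letters, and those of Cox5b (chr9:46417717-46417836, plus strand) and Ndufa1 (chrX:121293664-121293783, minus strand) the ETS letters.
Ndufa11: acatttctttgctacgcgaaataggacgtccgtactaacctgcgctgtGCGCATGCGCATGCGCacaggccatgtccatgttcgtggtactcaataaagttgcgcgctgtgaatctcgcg
Sdhb: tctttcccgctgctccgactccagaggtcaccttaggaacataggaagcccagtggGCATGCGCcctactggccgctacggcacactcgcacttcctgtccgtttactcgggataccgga
Cox5b: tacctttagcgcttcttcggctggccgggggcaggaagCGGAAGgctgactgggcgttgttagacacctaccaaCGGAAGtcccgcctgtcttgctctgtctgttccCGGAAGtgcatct
Ndufa1: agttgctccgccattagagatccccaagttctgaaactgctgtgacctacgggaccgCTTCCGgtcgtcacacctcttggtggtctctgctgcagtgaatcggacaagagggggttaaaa
In Ndufa11 the search gave 2 adjoining NRF1 matches, the letters followed directly by their reverse complement. Cox5b holds 3 copies of the ETS letters, the last of them 13 bases before the start. Ndufa11 rose by 0.57 ± 0.10 on the log2 scale (SE; edgeR adjusted p = 0.0238). It was picked for its sequence once its values were known. A match describes these letters only and is not evidence of binding.

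Genes of the mitochondrial ribosome were mostly higher as well. Of its 71 tested protein genes, 69 were higher and 16 of these passed (22.5%, against 1.69% of all genes), with a median log2 fold change of 0.32. The large subunit had 44 of 44 higher with 10 called, and the small subunit 25 of 27 higher with 6 called. Mrpl14, of the large subunit, was at 505, 429, 376, 393, 313 and 341 CPM in the high animals and at 324, 312, 235, 275 and 218 CPM in the low animals. Here high-adiposity animal 5 lay below low-adiposity animal 1, so the groups overlapped slightly across diets. Mrpl14 rose by 0.71 ± 0.12, Mrps21 by 0.59 ± 0.10 and Mrpl12 by 0.52 ± 0.09 (log2, SE; edgeR adjusted p = 0.022 each).

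Per animal, a score was taken as the mean over the 73 subunits of log2 CPM minus each gene's mean over the 11 animals. It was 0.42, 0.38, 0.06, 0.14, 0.00 and -0.05 in high-adiposity animals 1 to 6 and -0.12, -0.03, -0.32, -0.04 and -0.45 in low-adiposity animals 1 to 5. The high scores belonged to the 2 fat control offspring, and the low ones to the lean high-fat offspring and the leanest animal, low-adiposity animal 3. The 4 fat high-fat offspring lay close to 3 of the 4 lean control offspring, and high-adiposity animal 6 fell below 2 of them. The fattest animal, high-adiposity animal 3, had a score of 0.06, so the score did not follow percent fat beyond the limit of 7%. The mitochondrial ribosome score placed the animals similarly, from 0.27 in high-adiposity animal 1 to -0.29 in low-adiposity animal 5.

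**Figure D4:**
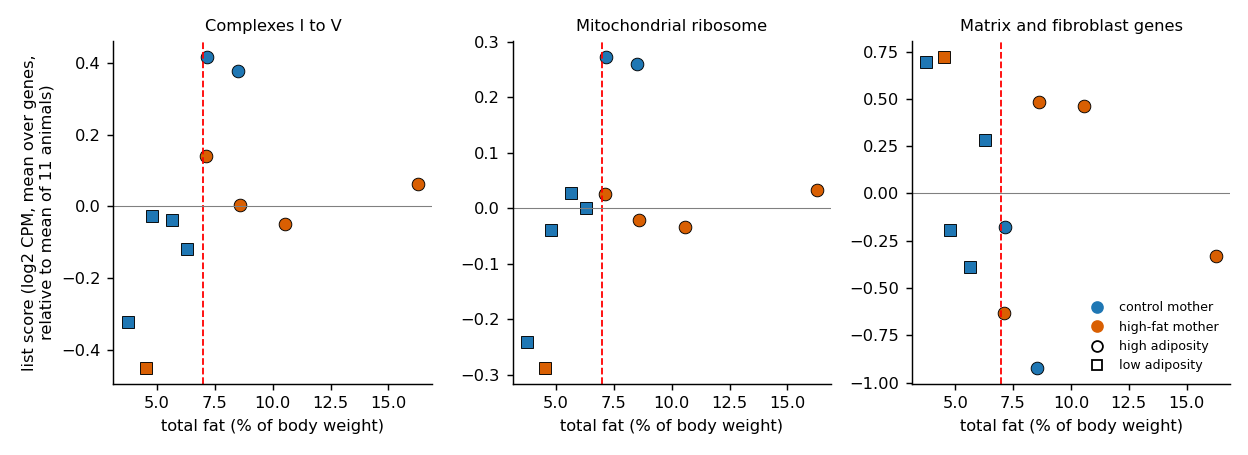
Each point is 1 animal, with total fat as a percentage of body weight on the horizontal axis and a list score (mean log2 CPM relative to the mean of the 11 animals) on the vertical axis, for complexes I to V, the mitochondrial ribosome, and matrix and fibroblast genes. The 2 high animals with control mothers (blue circles) carry the highest scores in the first 2 panels, and the low animal with a high-fat mother (orange square) carries the lowest.

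Other mitochondrial genes that rose were named after their values were seen. They include both subunits of the mitochondrial pyruvate carrier, Mpc1 at 0.42 ± 0.08 and Mpc2 at 0.55 ± 0.13 (log2, SE), the ADP/ATP carrier Slc25a4 at 0.58 ± 0.10, and Timm23, the channel of the inner membrane import machinery, at 0.52 ± 0.09. The mitochondrial peroxiredoxin Prdx5 rose by 0.57 ± 0.10 and thioredoxin Txn2 by 0.49 ± 0.09. They were 2 of 24 tested antioxidant and uncoupling genes (8.33%, against 1.69% of all genes). Fis1, a mitochondrial fission factor, rose by 0.39 ± 0.08. It was the 1 called gene among 21 (4.76%) of mitochondrial biogenesis and dynamics, whose median was -0.03. In that list the regulator Ppargc1a was at 0.38 ± 0.32 (edgeR adjusted p = 0.53), with 6.03 to 16.2 CPM in the high and 4.81 to 11.4 CPM in the low animals. Gabpa, the ETS factor named above, was at -0.40 ± 0.10 and the mitochondrial RNA polymerase Polrmt at 0.41 ± 0.11 (edgeR adjusted p = 0.055 and 0.085).

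Genes of mitochondrial fatty acid oxidation were all higher, 19 of 19, and 1 passed (5.26%, against 1.69% of all genes). Their median log2 fold change was 0.38, and it was 0.24 in control against 0.63 in high-fat offspring, a difference that was not tested for the list. The called gene was Etfb, a subunit of the flavoprotein that passes electrons from acyl-CoA dehydrogenases to the respiratory chain, at 0.57 ± 0.10 (SE; edgeR adjusted p = 0.0238). Acadvl, the dehydrogenase for long chains, was at 0.51 ± 0.13 and the isomerase Eci1 at 0.65 ± 0.18 (adjusted p = 0.059 and 0.082). Cpt1b, which controls entry of long-chain fatty acids into muscle mitochondria, was at 0.35 ± 0.11 (adjusted p = 0.112). In the TCA cycle 15 of 18 genes were higher and 3 passed (16.7%), namely Sdhb, Idh3B at 0.44 ± 0.10 and Mdh2 at 0.46 ± 0.11.

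Of 21 glycolysis and glycogen genes 17 were higher and 2 passed (9.52%, against 1.69% of all genes), with a median of 0.30. Pgam2, the muscle phosphoglycerate mutase, rose by 0.81 ± 0.17 (SE), and aldolase Aldoa by 0.80 ± 0.18 (edgeR adjusted p = 0.040 and 0.043). Aldoa had 12140, 11680, 9671, 10540, 7054 and 6279 CPM in the high animals and 5425, 8140, 6550, 7690 and 4726 CPM in the low animals. The groups overlapped, as high-adiposity animals 5 and 6 lay below 2 or 3 of the lean control offspring. The next gene of the list, Tpi1, was at 0.42 ± 0.12 (adjusted p = 0.086).

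Slow fibre genes were higher in 14 of 15 cases with a median of 0.31, and 1 passed (6.67%, against 1.69% of all genes). This was Myl3, the slow essential myosin light chain, which rose by 0.58 ± 0.13 (SE; edgeR adjusted p = 0.041). Myl2 and Tnnc1, the slow regulatory light chain and troponin C, were at 0.47 ± 0.11 and 0.37 ± 0.12 (adjusted p = 0.055 and 0.12). The slow heavy chain Myh7 itself was at 0.02 ± 0.16, with 17370 to 25150 CPM in the high and 18020 to 23570 CPM in the low animals. Of 13 fast fibre genes 8 were higher, 5 lower and none passed. The fast heavy chain Myh2 varied widely within both groups, from 100 to 2391 CPM in the high and from 107 to 1806 CPM in the low animals, and its log2 fold change of 1.50 ± 0.83 did not pass (adjusted p = 0.32). Actn3, an actinin of the fastest fibres, was at -2.45 ± 0.85 (adjusted p = 0.14), with 132 and 223 CPM in low-adiposity animals 2 and 4 against at most 47.9 CPM in every other animal.

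Cytosolic translation and protein breakdown showed the same sign with few calls. Of 72 cytosolic ribosome genes 67 were higher with a median of 0.26, and 2 passed, among them Rpl28 (0.49 ± 0.10). This share of 2.78% is near the 1.69% of all genes. Short reads can be split between ribosomal genes and their processed copies, so these counts are less certain. Of 32 proteasome genes 29 were higher and 1 passed (3.12%), Psmb5, which rose by 0.38 ± 0.09. The proteasome median of 0.18 became -0.01 with library size scaling. Trim63, a ubiquitin ligase of muscle atrophy, was at 0.81 ± 0.30 (adjusted p = 0.17).

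In lipid handling the calls concerned droplet formation and fatty acid activation. Fitm1, which promotes the budding of lipid droplets in muscle, was at 334, 356, 314, 303, 242 and 256 CPM in the high animals and at 217, 224, 217, 225 and 192 CPM in the low animals. The groups did not overlap. Fitm1 rose by 0.61 ± 0.09 on the log2 scale (SE; edgeR adjusted p = 0.0216). It was the 1 call among 21 genes of lipid droplets, triglyceride synthesis and lipolysis (4.76%, against 1.69% of all genes). Its relative Fitm2 was at 0.47 ± 0.12 and the triglyceride-forming enzyme Dgat1 at 0.47 ± 0.13 (adjusted p = 0.066 and 0.080). Acsl3, an acyl-CoA synthetase, fell by 0.73 ± 0.14 (adjusted p = 0.0290). It was the 1 call among 15 genes of fatty acid uptake and binding, where 0.342% of all genes fell. The fatty acid carrier Fabp3 was at 0.77 ± 0.23, the transporter Cd36 at 0.10 ± 0.23 and lipoprotein lipase Lpl at 0.18 ± 0.18 (adjusted p = 0.10, 0.83 and 0.60). Cd36 and Lpl were slightly negative with library size scaling (-0.10 and -0.02).

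No target gene of the fatty acid sensors PPAR passed. Of 19 tested, 14 were higher with a median of 0.35, which was 0.06 in control and 0.60 in high-fat offspring, again a difference not tested for the list. Acot2, a mitochondrial thioesterase, was at 0.72 ± 0.22 (edgeR adjusted p = 0.10). Pdk4, the kinase that shuts off pyruvate oxidation, was at 0.41 ± 0.53 and Ucp3, the muscle uncoupling protein, at 0.43 ± 0.50 (adjusted p = 0.69 and 0.65). Pdk4 reached 299 and 446 CPM in high-adiposity animals 3 and 6, the fattest animals, and lay between 80.7 and 188 CPM in the other 9. Ucp3 was also highest in these animals, at 101 and 120 CPM against 20.6 to 53.9 CPM.

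Fatty acid synthesis genes were mostly lower, 9 of 10, and none passed. The stearoyl-CoA desaturases Scd and Scd1, close relatives between which short reads may be split, were at -0.91 ± 0.27 and -1.59 ± 0.56 (edgeR adjusted p = 0.096 and 0.15).

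Signals from fat and insulin showed little at the level of muscle mRNA. Of 25 genes of leptin and adiponectin signalling 9 were higher, 16 lower and none passed, with a median of -0.15. The leptin receptor Lepr was at 1.75 to 3.41 CPM in the high and 2.27 to 4.45 CPM in the low animals, and the adiponectin receptor Adipor1 at 154 to 208 CPM against 154 to 169 CPM (edgeR adjusted p = 0.80 and 0.29). Of 29 genes of insulin signalling and glucose uptake 9 were higher, 20 lower and none passed, with a median of -0.09. The insulin-responsive glucose transporter Slc2a4 was at 0.46 ± 0.13 (adjusted p = 0.088). Irs1, the main insulin receptor substrate of muscle, was at -0.49 ± 0.34 and the kinase subunit Pik3r1 at -0.13 ± 0.24 (adjusted p = 0.44 and 0.80).

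Ebf2, a transcription factor of adipocyte precursors, had the smallest p of the genes that fell. It was at 4.79, 4.07, 8.66, 6.82, 10.3 and 7.97 CPM in the high animals and at 12.3, 8.53, 11.9, 10.8 and 17.3 CPM in the low animals. The high animals were below the low ones within each diet, while high-adiposity animals 3 and 5 lay above low-adiposity animal 2. Its log2 fold change was -1.19 ± 0.17 (SE; edgeR adjusted p = 0.0216). Sncg, gamma-synuclein, which is abundant in adipocytes and sensory neurons, was at 27.3, 39.6, 43.3, 52.0, 69.4 and 65.0 CPM in the high animals and at 72.6, 47.0, 104, 88.8 and 150 CPM in the low animals. The groups overlapped through low-adiposity animal 2. It fell by 1.28 ± 0.22 (log2, SE; edgeR adjusted p = 0.0238).

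The other genes with the smallest p among those that fell were of several kinds. Eps15, an endocytosis adaptor, fell by 0.61 ± 0.10, and Gulp1, an adaptor for engulfment, by 0.98 ± 0.18 (log2, SE). Omd, the small matrix proteoglycan osteomodulin, fell by 1.20 ± 0.23, and Serpinb9, a granzyme B inhibitor, by 0.77 ± 0.15. The regulators of small GTPases Dock8 and Arhgap20 fell by 0.85 ± 0.16 and 0.96 ± 0.19, and the Golgi protein Trip11 by 0.48 ± 0.10. Their edgeR adjusted p lay between 0.0231 and 0.0336.

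Further genes that fell, named after their values were seen, are known from adipocytes: the insulin receptor substrate Irs3 (-2.02 ± 0.44), the phosphodiesterase Pde3b (-1.01 ± 0.22) and the adenosine receptor Adora1 (-1.72 ± 0.36). Irs3 and Adora1 were at no more than 2.27 CPM in any animal. The markers fixed for adipocytes were lower in the fat animals in 9 of 11 cases, with a median of -1.14 and none called. Adiponectin (Adipoq) was at 5.26, 33.9, 9.82, 26.6, 35.4 and 38.6 CPM in the high animals and at 68.6, 38.5, 99.7, 27.9 and 92.8 CPM in the low animals. The groups overlapped through low-adiposity animals 2 and 4. Its log2 fold change was -1.64 ± 0.52 (SE; edgeR adjusted p = 0.11). Leptin (Lep), the droplet coat protein Plin1 and adipsin (Cfd) were at -1.04 ± 0.53, -1.40 ± 0.53 and -1.10 ± 0.34 (adjusted p = 0.28, 0.18 and 0.11). Fabp4, which capillaries of muscle also express, was at 0.23 ± 0.27. Whether fewer cells of a type or less RNA per cell lay behind a lower level cannot be told apart in whole muscle.

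Markers of other cell types that a piece of muscle holds also differed in level between animals, and none passed. Extracellular matrix and fibroblast genes were lower in 22 of 22 cases with a median of -0.67. For 4 of them every high animal lay below every low animal within both diets, a separation that 5.24% of all genes showed, and their summed level was 2801 to 7218 CPM in the high and 4699 to 8134 CPM in the low animals. The matrix proteoglycan Lum was at -1.28 ± 0.34 and the fibroblast receptor Pdgfra at -0.81 ± 0.24 (edgeR adjusted p = 0.073 and 0.10). Macrophage markers were lower in 18 of 19 cases with a median of -0.68, which was -0.30 in control offspring. Emr1 and Cd68 reached 44.8 and 40.2 CPM in low-adiposity animal 5 and at most 22.6 and 21.1 CPM in the other animals. Nerve and Schwann cell markers were lower in 12 of 12 cases with a median of -1.01. Low-adiposity animal 4 had by far the most of these, with a summed level of 2077 CPM against a lowest of 231 CPM in its group and 154 to 262 CPM in the high group. S100b and Pmp22, both made by Schwann cells, reached 147 and 405 CPM in that animal against at most 61.1 and 161 CPM in the others. Lymphocyte and mast cell markers were lower in 11 of 11 cases with a median of -0.83. Tendon genes were lower in 7 of 8 cases with a median of -0.67. Other cell types went the other way. Neutrophil genes were higher in 4 of 4 cases (median 0.85) and red blood cell genes in 6 of 6 (0.23). In control offspring these medians were 0.15 and 0.10. Only 4 of 12 neutrophil genes had enough counts to be tested. Of these, S100a8 was at 10.1 and 20.1 CPM in high-adiposity animals 3 and 6 and at most 2.97 CPM in the other animals. Endothelial markers were higher in 12 of 14 (0.28) and smooth muscle and pericyte markers in 9 of 12 (0.12). The lists that were lower move with the fall in Ebf2, Sncg and Omd and opposite to the respiratory chain genes. Their part in those results was not tested.

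**Figure D5:**
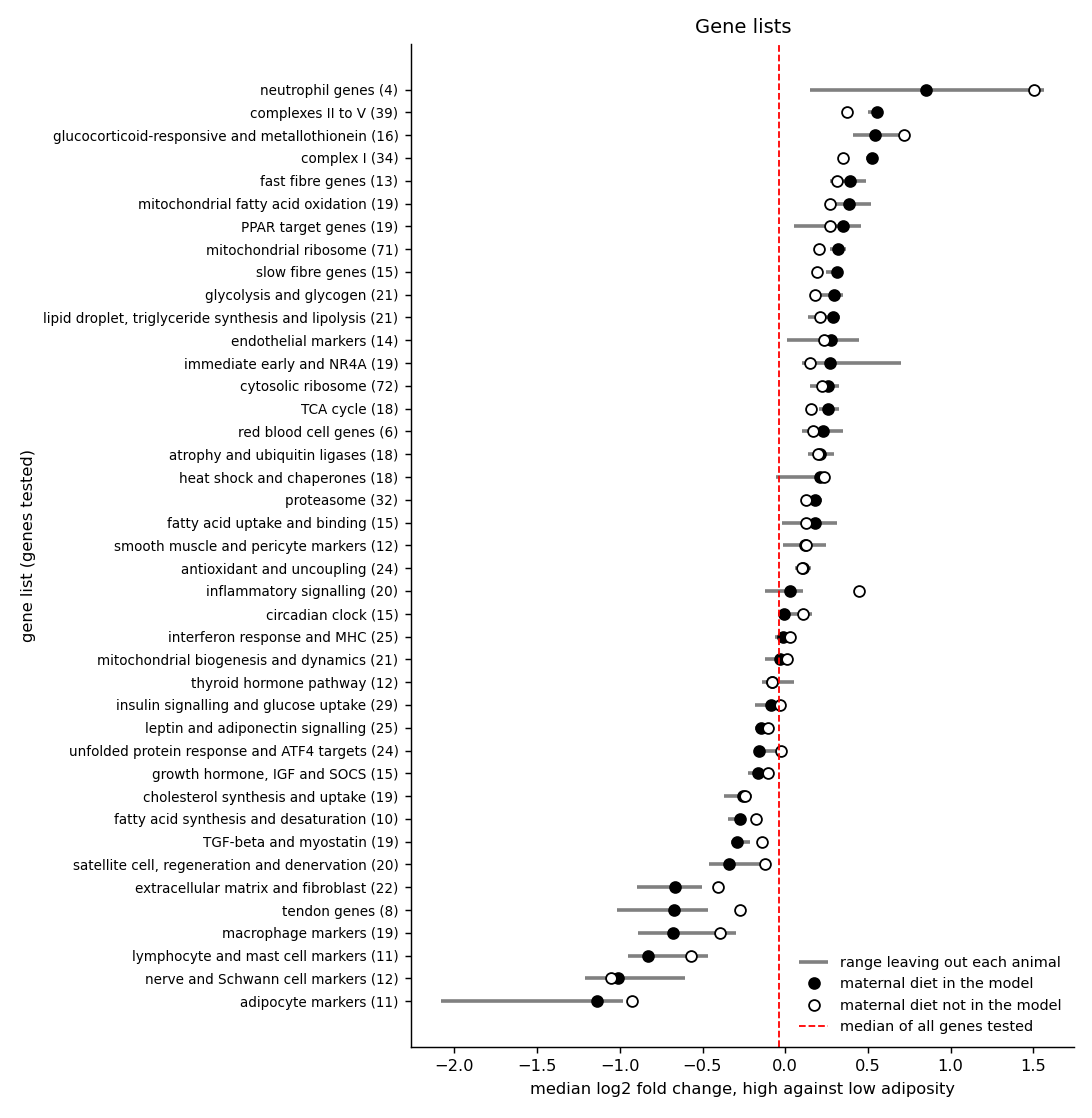
Filled dots give the median log2 fold change of each gene list for high against low adiposity with maternal diet in the model, open dots the same without diet, and grey lines the range when each animal is left out in turn. The dashed line is the median of all genes tested, -0.04; complex I and complexes II to V lie at 0.52 and 0.56 with short lines, and adipocyte markers lie at -1.14 with a long one.

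Inflammatory signalling genes gave 1 call among 20 (5.0%, against 1.69% of all genes). Nfkbia, an inhibitor of NF-kappa-B that NF-kappa-B itself induces, was at 163, 110, 143, 148, 111 and 143 CPM in the high animals and at 102, 59.9, 55.6, 97.8 and 55.9 CPM in the low animals. The groups did not overlap, and it rose by 0.97 ± 0.22 on the log2 scale (SE; edgeR adjusted p = 0.045).

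Genes that respond to glucocorticoids and to time of day were not called. Of 16 glucocorticoid-responsive and metallothionein genes 14 were higher with a median of 0.54. Klf9 was at 0.57 ± 0.17 and Per1, which is both a clock and a glucocorticoid-induced gene, at 1.02 ± 0.36 (edgeR adjusted p = 0.10 and 0.15). Per1 had 70.9 to 101 CPM in the high and 11.3 to 61.2 CPM in the low animals, so these groups did not overlap. In the clock, Per3 was at 0.72 ± 0.22 and Clock at -0.87 ± 0.26 (adjusted p = 0.11 and 0.10), while the median of the 15 clock genes was 0.00. The times of tissue collection are not given in the labels.

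When percent fat was used as a number in place of the groups, 1 gene passed. Igfbp5, a binding protein of insulin-like growth factors, was lower by 1.06 ± 0.11 per 5 percentage points of fat (log2, SE; edgeR adjusted p = 0.00588). It was at 51.9, 33.4, 22.7, 70.5, 70.9 and 49.0 CPM in the high animals and at 64.7, 60.3, 65.4, 57.4 and 147 CPM in the low animals. Its extremes belonged to the fattest animal and to the lean high-fat offspring. Without high-adiposity animal 3 the value was -1.11 ± 0.18 and without low-adiposity animal 5 -0.93 ± 0.13, neither of which passed (adjusted p = 0.41 and 0.091). Without maternal diet, the 1 gene that passed was Pnpla2, the lipase that starts triglyceride breakdown, higher by 0.57 ± 0.07 per 5 points (adjusted p = 0.0377). The choice of Pnpla2 was made once its values were known. It had 294, 339, 568, 324, 259 and 389 CPM in the high animals and 235, 270, 206, 242 and 212 CPM in the low animals. The fattest 2 animals had the highest values. Leaving out each animal in turn kept Pnpla2 at 0.55 to 0.60 per 5 points, and it passed without high-adiposity animal 4 or 5 but in none of the other 9 cases. Between the 2 groups neither gene passed, with Igfbp5 at -0.91 ± 0.28 and Pnpla2 at 0.57 ± 0.21 (adjusted p = 0.11 and 0.16). The 73 subunits had a median of 0.24 per 5 points.

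Fold changes also moved with the length of genes. When tested genes were split into 5 classes of equal number by the genomic span of the RefSeq gene (build GRCr8), the median log2 fold change was 0.11 in the shortest class and -0.17 in the longest. Of the genes that rose, 104 lay in the shortest class and 5 in the longest, and of those that fell, 6 and 19. Subunits of complexes I to V are mostly short genes, 43 of 73 lying in the shortest class. In that class their median was 0.58 against 0.10 for the other genes, and in the next it was 0.48 against 0.02. What part of the other results moves with gene span was not tested.

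No organ weight or blood measure passed between the groups. With so few animals this does not show that the groups were alike. Each of 8 measures was compared by a two-sided exact permutation test over all 462 splits of the animals, or 210 for blood measures, which low-adiposity animal 5 lacks. These splits ignored maternal diet. With splits within each maternal diet the exact permutation p was 0.4 for insulin and 0.187 for pancreas weight, and the adjusted p 0.6 for all 8. For blood measures such splits cannot give a p below 0.0667. Insulin was 2.05 ng/ml ± 0.507 (SD, n = 6) against 1.61 ng/ml ± 0.323 (SD, n = 4), with an exact p of 0.162. The index of insulin resistance HOMA-IR was 16.4 ± 8.30 against 11.1 ± 2.30, with an exact p of 0.295. Glucose was 7.06 mmol ± 2.17 as the labels give it against 6.29 mmol ± 0.150, and 3 of the 4 low animals carry the same glucose value of 6.36 in the labels. Pancreas weight was 1.15 g ± 0.287 against 0.910 g ± 0.170 (exact p = 0.145), and the adjusted p was 0.626 for all 8 measures. Heart weight was 1.71 g ± 0.250 against 1.64 g ± 0.163 (exact permutation p = 0.597). As a share of body weight the heart was 0.211% ± 0.00556 in the high and 0.233% ± 0.0195 in the low group. Body weight also divides the fat share that formed the groups, so a test of this heart share is not independent of them and no conclusion is drawn.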

How the data were processed

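Skeletal muscle (soleus) mRNA was sequenced for 36 cycles from 2 µg of total RNA per animal, per the labels' protocols. The authors deposited raw read counts per gene symbol for the 11 animals, made with FastQC, BWA and HTSeq per the submitters' processing notes. Genome build, annotation and strand setting: not given in the sources used here. The limit of 7%, the groups and the 41 gene lists were chosen with earlier results of these data known, so no count over a list is independent support.

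Genes were kept with edgeR's filterByExpr (10814 of 16810 rows) and scaled by TMM. Quasi-likelihood F tests used adiposity and maternal diet as terms, with Benjamini-Hochberg adjustment over all genes tested. The standard error of a log2 fold change was taken as its size over the root of F. The common biological coefficient of variation was 0.215. Gene lists are described by counts and medians without a test. A count of 0 allows up to 3 counts, or 0.195 to 0.295 CPM depending on the library (counting error only). A total of 24 rows with names turned into dates (0.107% of counts) were fitted but left unnamed. Of the listed names 896 matched a row by symbol, 11 by an older or newer symbol, 4 in another case, and 59 were not used.

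The genes named are the 10 rising and 10 falling ones of smallest p (rows named by a locus number or a date left out), up to 3 members per list, and always a set chosen for the tissue (Lep, Adipoq, Plin1, Fabp4, Lepr, Adipor1, Cd36, Lpl, Cpt1b, Pdk4, Ucp3, Slc2a4, Irs1, Pik3r1, Ppargc1a, Myh7, Myh2 and Cd68). Subunits beyond these complete a count and were picked with their values in view. Some genes the rule names are not reported here. Each animal is 1 replicate from a litter of its own.

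Alternatives were other scalings, filters and tests (DESeq2, likelihood ratio, robust, limma voom), fat as a number, added covariates, each diet alone, and leaving out animals. The test was also run on simulated counts, drawn gene by gene with no effect of maternal diet. That run cannot speak to the confounding with diet or to the weight of single animals, and its outcome is not given here. Software was edgeR 4.0.16, DESeq2 1.42.0 and limma 3.58.1 under R 4.3.3, and SciPy 1.17.1 under Python 3.11.15.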

Additional observations from a re-analysis of the deposited data

Results flagged for a closer look

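In each group of 4 to 6 animals a single value can stand far from the rest. By Dixon's ratio at the 95% level, 16 of 204 groups of values had such an animal. The groups share the same animals and many genes were picked for a small p. The count therefore cannot be set against a rate of chance. Low-adiposity animal 5 stood apart in 8 of these. It was the only animal of its group with a high-fat mother, so its own traits and maternal diet cannot be told apart. Its levels were below the other 4 low animals for the complex I subunits Ndufb7 (224 CPM against 310 to 337) and Ndufa11 (251 CPM against 344 to 371) and for the droplet protein Fitm1 (192 CPM against 217 to 225). Its levels were above them for Gabpa (40.8 CPM against 29.7 to 32.2), Eps15 (44.3 CPM against 29.1 to 31.9), Acsl3 (25.2 CPM against 12.8 to 16.0), Pik3r1 (28.1 CPM against 9.55 to 14.8) and Igfbp5 (147 CPM against 57.4 to 65.4).

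Low-adiposity animal 4 was above the others of its group for the Schwann cell genes S100b (147 CPM against 34.4 to 61.1) and Pmp22 (405 CPM against 112 to 161), for Fabp4 (540 CPM against 305 to 372) and for Pdk4 (188 CPM against 90.8 to 112). Its plasma glucose of 6.06 mmol stood below the 6.36 mmol given for each of the other 3, a case in which any differing value is flagged. Low-adiposity animal 2 had 1806 CPM of the fast myosin Myh2 against 107 to 583. In the high group, animal 1 had 9601 CPM of Myl2 against 6155 to 7364, and animal 6 had 10.2 CPM of Clock against 4.69 to 6.41.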

How the results depend on the processing

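The number of genes called for high against low adiposity with maternal diet in the model was 220 and moved with the tool, the scaling and the animals. Library size scaling gave 469 calls, DESeq2 849, edgeR's likelihood ratio test 523 and no filter 138. The call count was 0 in control offspring alone, in high-fat offspring alone, without the 2 animals just over 7%, with total fat in g, with body weight added, with the letter of the animal's name added, and without high-adiposity animal 3 and low-adiposity animal 5 together (chosen after seeing the data), and 1 with percent fat as a number. These settings have fewer animals, more terms or another adiposity term, and the cause was not tested. Leaving out each animal gave 0 to 227 calls. Without diet in the model the count moved from 0 to 99 (DESeq2), 57 (likelihood ratio test) and 1 (percent fat as a number), and the maternal diet count from 0 to 289 (DESeq2), 37 (likelihood ratio test) and 0 to 1 when each animal was left out.

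Of 2517 values of the 90 genes named, under all alternatives, 1780 kept their direction and side of the threshold. A further 654 kept the direction but lost the call, 53 gained a call and 30 changed sign. Genes without a call to begin with counted as kept when they stayed uncalled. The 1780 is therefore not a measure of how stable the calls were. All 45 called genes of the 90 lost the call with body weight or the name letter added, in control offspring, or without low-adiposity animal 1. With library size scaling 10 lost it, and with the likelihood ratio test or limma voom 0 did. The genes that changed sign were not called. Myh7 was at -0.00722 with upper quartile scaling, -0.18 with library size, -0.12 in control offspring, -0.013 with percent fat as a number, -0.019 with body weight added, -0.12 with the name letter, -0.12 without those 2 animals together, and -0.12 to 0.11 leaving out each animal. Irs1 was at 0.20 with body weight added. Pik3r1 was at 0.24 in control offspring and without those 2 animals together, and at -0.27 to 0.24 leaving out each animal. Lepr was at 0.33 in high-fat offspring and at -0.42 to 0.015 leaving out each animal. Library size scaling put Adipor1 at -0.0087, Cd36 at -0.096 and Lpl at -0.016. In control offspring Cd36 was at -0.050, Lpl at -0.021 and Pdk4 at -0.062, and without those 2 animals together at -0.051, -0.022 and -0.062. Leaving out each animal gave -0.16 to 0.37 for Cd36, -0.022 to 0.38 for Lpl and -0.063 to 0.77 for Pdk4. Left kidney weight was lower by 0.0356 g by medians, as heart, liver and left kidney weight were as a share of body weight (-0.0227, -0.218 and -0.0195 percentage points), and the glucose difference was -0.009 to 1.18 leaving out each animal.

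No paired analysis was possible because the labels give animals of the 2 groups no shared replicate numbers. With 6 against 5 animals, and 1 lean offspring of a high-fat mother, the high-fat contrast rests on that animal.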

Other observations

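Some further gene groups gave no call in high against low adiposity with maternal diet in the model. Cholesterol synthesis and uptake genes were lower in 15 of 19 cases (median -0.25 on the log2 scale), and genes of satellite cells, regeneration and denervation in 15 of 20 cases with a median of -0.34. TGF-beta and myostatin genes were lower in 17 of 19 cases, with a median of -0.29. Endothelial markers were higher in 12 of 14 cases with a median of 0.28, which was 0.01 in control and 0.80 in high-fat offspring, a difference that was not tested for the list. Heat shock and chaperone genes were higher in 14 of 18 cases with a median of 0.21, which was -0.05 in control offspring.

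The first principal component of log2 CPM over all tested genes held 26.9% of the variance. Low-adiposity animal 5 lay at one end of it, at 36.8, and high-adiposity animals 4, 2 and 1 at the other, at -27.0, -26.4 and -22.8, while high-adiposity animals 3, 5 and 6 lay among the low-adiposity animals at 1.13, 4.07 and 17.9.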
